A study of Homo sapiens with 6 samples.

Results

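The collagen genes were the 44 protein-coding genes, of 58735 genes in the table, whose symbol is COL, a type number, the letter A and a chain number. They were taken by symbol and type of gene, with no measured value. By the known architecture of the proteins they fell into 11 fibrillar, 6 basement membrane, 10 FACIT (fibril-associated collagens with interrupted helices) and 17 other collagens. RNA was measured by RNA-seq in human cells labelled HGC-27, which the paper uses as a gastric cancer cell line. There were 3 control libraries (shNC-1 to shNC-3) and 3 libraries with knockdown of ACAT2 (shACAT2-1 to shACAT2-3), the cytosolic acetyl-CoA acetyltransferase. The cells of both groups were labelled wild type. They received the vector labelled pSIH-H1-Puro-shNC (control) or pSIH-H1-Puro-shACAT2 (knockdown) for 24 h, and were then kept under puromycin for 7 days. The paper describes its negative controls as empty vectors and lists no control hairpin sequence. The ACAT2 hairpin of these libraries was not named. The paper lists more than 1, so it is not known whether the 3 shACAT2 libraries carried the same one. All libraries came from 1 cell line. The comparison asked which collagens differed in RNA level between ACAT2-deficient and control cells, class by class.

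Collagens are the main fibrous proteins of the extracellular matrix. Their chains are hydroxylated and wound into a helix in the endoplasmic reticulum, secreted as procollagens, trimmed outside the cell and cross-linked. Fibrillar collagens make the load-bearing fibrils of interstitial tissue, collagen IV forms the network of basement membranes, FACITs decorate fibrils, and in tumours most fibrillar collagen is usually made by stromal fibroblasts.

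The libraries held 14086416 to 16067486 fragments assigned to genes, and ACAT2 was at 14.2, 11.7 and 12.7 FPKM (fragments per kilobase of exons, scaled by the authors to a denominator that was not the total on genes) in shNC and at 6.19, 5.46 and 6.05 FPKM in shACAT2, with no overlap. The library shACAT2-3 stood apart: 7477 genes were seen in it alone, against 416 to 657 in each of the other libraries. Over the 25051 genes without a fragment in the other 5 libraries it held 0.0495 FPKM, so its lowest values were read against that level. The libraries shNC-2 and shNC-3 differed by a chi-square of 1.72 per gene, whereas other pairs of the same group gave 11.9 to 45.2, and were kept as separate samples. The series' design text calls the libraries biological replicates, but no source used here names separate cultures, so n counts libraries and the p-values measure the spread between them. Of 6 epithelial markers (EPCAM, KRT8, KRT18, KRT19, CDH1, KRT7) none reached a mean of 1 FPKM, and their summed level was 0.505 to 0.83 FPKM in shNC and 1.47 to 2.28 in shACAT2. Among them CDH1, which encodes E-cadherin, was at 0.12 to 0.222 FPKM in shNC and 0.608 to 1.15 in shACAT2, without overlap and with an adjusted p of 0.0127 by limma-voom, and its part in the results was not tested. Of 5 mesenchymal markers 4 were tested, and limma called 0, where it called 3.3% of all genes tested higher and 1.81% lower. The intermediate filament gene VIM stood at 246 to 292 FPKM in shNC and 340 to 461 in shACAT2 (adjusted p of 0.0634 by limma and 0.0217 by limma-voom). S100A4 was at 42.5 and 81.1 FPKM on average, also without overlap (0.0728 by limma and 0.0303 by limma-voom). ZEB1 and ZEB2 overlapped between the groups, and CDH2, for N-cadherin, had at most 6 fragments in a library. Epithelial markers were thus low beside VIM in cells labelled HGC-27, and the identity of the cells was not tested.

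Fibrillar collagen RNA dominated, and its summed level was higher in shACAT2. The summed level of the 11 fibrillar genes was 394, 352 and 361 FPKM in shNC and 593, 534 and 471 FPKM in shACAT2, with no overlap. Most of it was COL3A1 (213 and 297 FPKM on average in shNC and shACAT2) and COL1A1 (61.0 and 121). Not all fibrillar genes went that way: COL5A2 overlapped between the groups and COL27A1 was lower in shACAT2. Over all 44 genes the sum was 461 ± 27.3 FPKM (SD, n = 3) in shNC and 640 ± 85.4 in shACAT2. Basement membrane collagens summed to 4.76 to 5.14 FPKM in shNC and to 3.00 to 3.51 in shACAT2, the opposite order. Nearly all of that sum was the single gene COL4A5, at 4.78 FPKM on average in shNC and 3.07 in shACAT2. The sums of FACITs (50.3 to 53.4 against 42.9 to 74.5 FPKM) and of the other collagens (33.1 to 39.7 against 33.2 to 50.9 FPKM) overlapped between the groups. As shares of all collagen FPKM, fibrillar genes made up 80.0% ± 0.039 (SD, n = 3) in shNC and 83.4% ± 1.86 in shACAT2, while basement membrane genes made up 1.08% ± 0.036 and 0.527% ± 0.111.

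**Figure D1:**
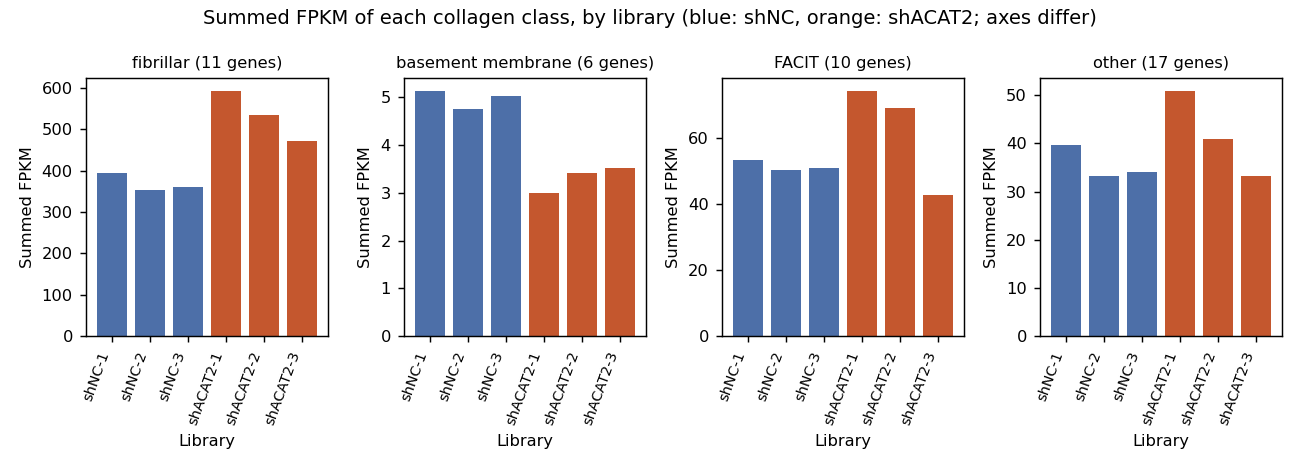
Summed FPKM (vertical axis, from 0, with a separate scale in each panel) of the 4 collagen classes in each library, blue for shNC and orange for shACAT2. The fibrillar bars are higher in all 3 shACAT2 libraries and the basement membrane bars lower, while the FACIT and other bars overlap, with shACAT2-3 the lowest of its group in both.

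For the test, limma with a trend was run on log2(FPKM + 1) for 13832 genes whose mean reached 1 FPKM in shNC or in shACAT2, and p-values were adjusted over all of them by the Benjamini-Hochberg method. Of the 44 collagen genes, 17 passed this filter, all through both groups, and 27 did not. The genes nearest to the limit were COL15A1, at 1.17 FPKM in its higher group, on the inside, and COL5A3, at 0.982 FPKM, on the outside. At an adjusted p under 0.05, 1 of the 17 was higher in shACAT2 (COL1A1), where 3.3% of all genes tested were, and 1 was lower (COL4A5), where 1.81% were. Under the study's own limit, an absolute log2 fold change above 1 with p under 0.05, none of the 17 was called, against 1.5% of all genes tested. At an unadjusted p under 0.05 by limma, 5 of the 17 collagen genes were higher, beside 12.8% of all genes tested, and 2 were lower, beside 10.7%, a share near the background.

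The groups did not overlap in 9 of the 17 genes. Of these, 5 were higher in shACAT2, all of them fibrillar, against 16.2% of all genes tested, and 4 were lower (COL4A5, COL27A1, COL18A1 and COL9A2), against 14.5%. The log2 fold change was positive in 12 genes and negative in 5, with a median of 0.28, beside 0.016 over all genes tested. That median depended on the libraries kept. It was 0.030 without shACAT2-1, 0.156 without shACAT2-2 and 0.318 without shACAT2-3, where 18 collagen genes passed the filter. By class the median was 0.45 for the 7 fibrillar genes tested, 0.17 for 4 FACITs and 0.09 for 5 other collagens, and the single basement membrane gene stood at -0.51. With the replicate number as a block, limma called 4 collagen genes higher, all fibrillar, where it called 7.67% of all genes, and 1 lower, where it called 4.81%. That block assumes a pairing by number that the labels do not state. Fold changes on log2(FPKM + 1) understate the change of genes near 1 FPKM. In bulk RNA, fewer cells that make a collagen and less collagen RNA per cell cannot be told apart.

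**Figure D2:**
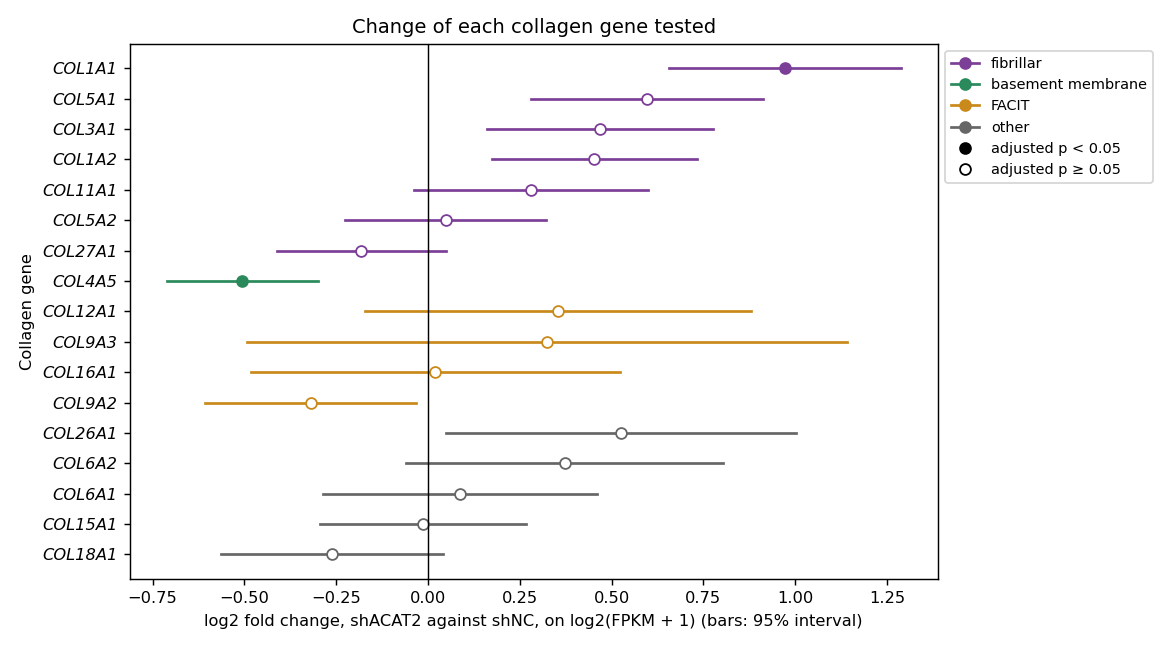
Log2 fold change of shACAT2 against shNC on log2(FPKM + 1) (horizontal axis) for the 17 collagen genes tested (vertical axis, coloured by class), with bars for the 95% interval of limma and filled points for an adjusted p under 0.05. The interval lies above 0 for COL1A1, COL5A1, COL3A1, COL1A2 and COL26A1, and below 0 for COL4A5 and COL9A2.

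COL1A1 (ENSG00000108821, chr17:50183289-50201632, minus strand, hg38, 51 exons in its longest coding transcript) encodes the alpha 1 chain of collagen I, the chief collagen of skin, tendon and bone. It was at 67.0, 57.9 and 58.0 FPKM in shNC and at 139, 116 and 108 FPKM in shACAT2. Every shACAT2 library lay well above every control library, and the mean rose from 61.0 ± 5.22 to 121 ± 16.1 FPKM (SD, n = 3), or 1.98-fold. The log2 fold change was 0.97 (SE 0.13, 95% interval 0.66 to 1.29), with an adjusted p of 0.0136 by limma. The call was lost in 4 of the 6 fits that leave out a library: limma's adjusted p was 0.0523 without shNC-1, 0.0908 without shNC-2, 0.0983 without shNC-3 and 0.0631 without shACAT2-2, while the log2 fold change stayed between 0.87 and 1.05. Without shACAT2-3 the adjusted p was 0.0174 by limma. With the alike libraries shNC-2 and shNC-3 averaged, COL1A1 was not called, at a log2 fold change of 0.94 and an adjusted p of 0.0936 by limma. That fit called 83 of all genes tested, against 706 in the main fit.

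COL1A2 (ENSG00000164692, chr7:94394561-94431232, plus strand), the alpha 2 chain that joins alpha 1 in collagen I, was far lower. It stood at 2.83, 2.59 and 2.57 FPKM in shNC and at 4.61, 4.17 and 3.33 in shACAT2. The groups did not overlap, and the fitted log2 fold change was 0.45 (SE 0.12), with limma's adjusted p at 0.0772, 0.0432 with the replicate block and 0.0415 without shACAT2-3. COL1A1 exceeded COL1A2 23.7-, 22.4- and 22.6-fold in the control libraries and 30.2-, 27.8- and 32.4-fold in shACAT2. The ratio thus differed between the groups without overlap, 22.9 ± 0.699 against 30.1 ± 2.33 (SD, n = 3). FPKM divides by the union of a gene's exons, which for COL1A2 is 2.06 times the length of its longest coding transcript, and per transcript length the mean ratios were 16.2 and 21.3.

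COL3A1 (ENSG00000168542, chr2:188974320-189012746, plus strand), the sole chain of collagen III of extensible tissues, was the most abundant collagen RNA. Its level was 232, 202 and 207 FPKM in shNC and 335, 291 and 263 in shACAT2, again without overlap. It made up 46.2% ± 0.744 (SD, n = 3) of the collagen FPKM in shNC and 46.4% ± 1.39 in shACAT2, while the share of COL1A1 was 13.2% ± 0.377 and 18.9% ± 0.908. The log2 fold change of COL3A1 was 0.47 (SE 0.13), with limma's adjusted p at 0.0916, and at 0.0345 with the replicate block. Relative to COL1A1 it was lower in every shACAT2 library, at 2.41, 2.52 and 2.44 times COL1A1, against 3.46, 3.48 and 3.56 in shNC, a ratio chosen after the values were seen. Its end lies 19.149 kb from the end of COL5A2 on the opposite strand.

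Collagen V, a minor fibrillar collagen that is built into collagen I fibrils and helps set their diameter, has chains from COL5A1, COL5A2 and COL5A3, and these differed unequally between the groups. COL5A1 was at 19.6, 17.9 and 17.9 FPKM in shNC and at 32.6, 29.5 and 23.8 in shACAT2, without overlap. Its log2 fold change was 0.60 (SE 0.13), with an adjusted p of 0.0536 by limma, 0.0302 with the replicate block and 0.0267 without shACAT2-3. COL5A2 stood at 37.8, 35.1 and 37.6 FPKM in shNC and at 40.0, 41.2 and 33.4 in shACAT2, overlapping, and its log2 fold change of 0.05 (95% interval -0.23 to 0.32) turned to -0.0036 under scaling to the total on genes. The ratio of COL5A1 to COL5A2 was 0.519, 0.509 and 0.475 in shNC and 0.814, 0.715 and 0.713 in shACAT2, a difference without overlap.

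COL5A3 showed the steepest difference of the fibrillar genes, but at a level below the filter. It was at 0.184, 0.210 and 0.215 FPKM (19, 23 and 25 fragments) in shNC and at 1.10, 1.03 and 0.810 FPKM (113, 116 and 82 fragments) in shACAT2. The mean was 4.84 times higher, and no library of one group reached the range of the other. By limma-voom on the fragments, across 16299 genes that had 10 or more fragments in 3 libraries, its log2 fold change was 2.19 (SE 0.23) with an adjusted p of 0.00162. In further fits chosen after seeing the data, leaving out each library in turn gave an adjusted p of 3.0e-04 to 0.0165 by limma-voom. The antisense gene AC008742.1 shares 270 exon bases, 4% of the length of COL5A3, and stood at 0 to 0.0571 FPKM.

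Under limma-voom with that filter, 30 collagen genes were tested. Higher in shACAT2 were 6 of them (COL1A1, COL1A2, COL3A1, COL4A2, COL5A1 and COL5A3), beside 3.9% of all genes tested, and 1 was lower (COL4A5), beside 3.83%. In this fit 3 of the 30 passed the study's limit on fold change and p, all of them higher and none among the 17 genes (COL5A3, COL4A2 and COL2A1), where 4.61% of all genes did. COL4A2, the alpha 2 chain of collagen IV, rested on few fragments. It was at 0.0305, 0.0192 and 0.0150 FPKM in shNC and at 0.0717, 0.0561 and 0.0864 in shACAT2, close to the 0.0495 FPKM that shACAT2-3 held over genes empty in the other libraries. Its log2 fold change of 1.63 (adjusted p of 0.0403 by limma-voom) was 1.47 without shACAT2-3 (0.0585), and it was called in 1 of the 6 fits that leave out a library, the one without shACAT2-1 (0.0315), so its adjusted p ran up to 0.186, without shNC-3.

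**Figure D3:**
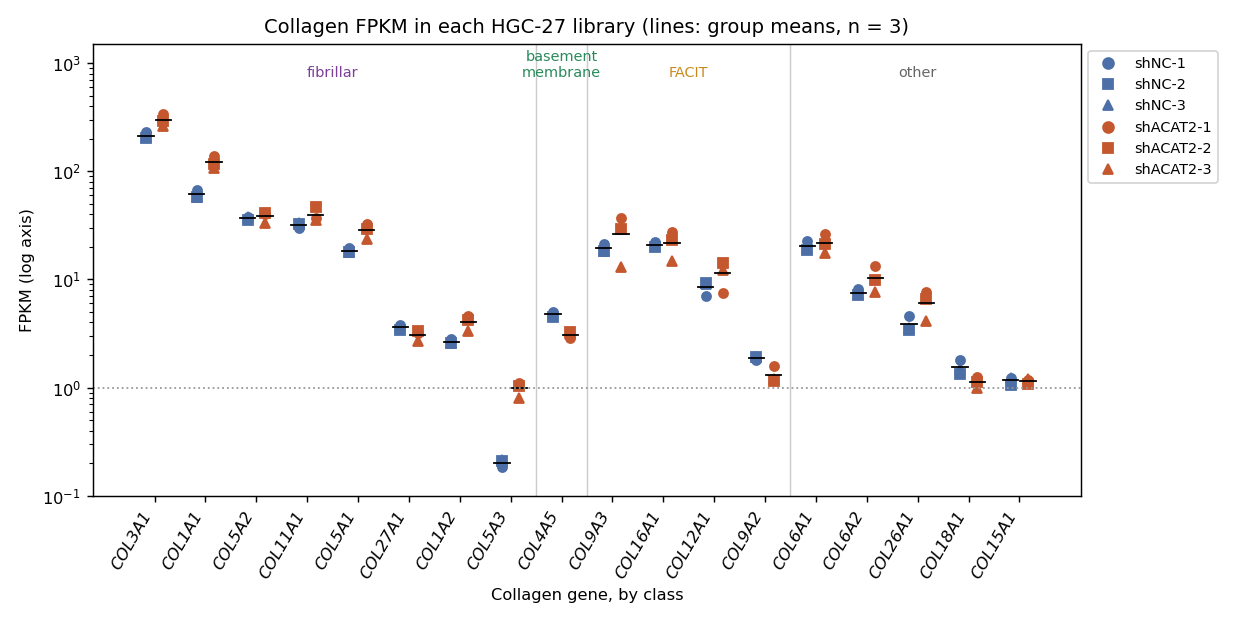
FPKM (vertical log axis) in each library for the 17 collagen genes tested and COL5A3, grouped by class, with symbols for the replicate number, colours for the group, black lines for group means and a dotted line at 1 FPKM. COL3A1 and COL1A1 lie above all other collagens, COL5A3 sits just under the line in shACAT2 on average, and shACAT2-3 is the lowest of its group for most genes.

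The remaining fibrillar genes were not called. COL11A1, a chain of collagen XI of cartilage that also pairs with collagen V chains, was at 30.2, 32.6 and 33.4 FPKM in shNC and 36.6, 46.8 and 35.1 in shACAT2, which did not overlap. Its log2 fold change was 0.28 (95% interval -0.04 to 0.60), with limma's adjusted p at 0.262. COL27A1, a fibrillar collagen of growth cartilage, ran the other way without overlap, at 3.78, 3.44 and 3.63 FPKM in shNC and 3.22, 3.31 and 2.72 in shACAT2, with a log2 fold change of -0.18 and an adjusted p of 0.313 by limma. COL2A1, the cartilage collagen, reached at most 28 fragments in a library, at 0.0696 to 0.0882 FPKM in shNC and 0.117 to 0.28 in shACAT2, with an adjusted p of 0.121 by limma-voom. COL11A2 (0.386 to 0.645 FPKM) and COL24A1 (0.0757 to 0.17 FPKM) overlapped between the groups.

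**Figure D4:**
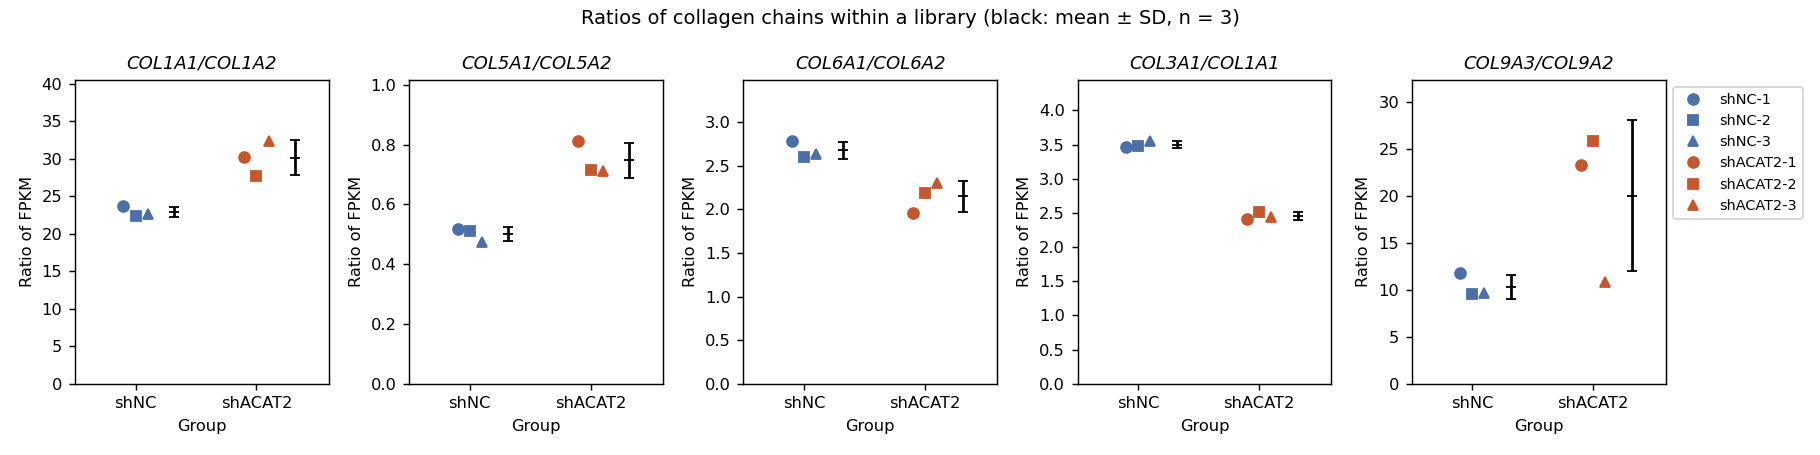
Ratio of the FPKM of a pair of collagen chains (vertical axis, from 0) in each library, by group, with black marks for the mean and SD of 3 libraries. COL1A1/COL1A2 and COL5A1/COL5A2 are higher in all shACAT2 libraries, COL6A1/COL6A2 and COL3A1/COL1A1 lower, without overlap, while for COL9A3/COL9A2 the groups overlap.

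Of the basement membrane genes, COL4A5 was the one at a measurable level, and it was lower in shACAT2. COL4A5 (ENSG00000188153, chrX:108439844-108697545, plus strand), the alpha 5 chain of collagen IV that is mutated in Alport syndrome, was at 4.96, 4.54 and 4.83 FPKM in shNC and at 2.85, 3.24 and 3.12 in shACAT2. All control libraries lay above all knockdown libraries, and the mean was 3.07 ± 0.198 FPKM (SD, n = 3) in place of 4.78 ± 0.215, or 0.643 of the control. The log2 fold change was -0.51 (SE 0.09, 95% interval -0.71 to -0.30), with an adjusted p of 0.0258 by limma and 0.031 with the replicate block. The call was lost, with adjusted p by limma at 0.1002 without shNC-1, 0.122 without shNC-2, 0.142 without shNC-3 and 0.0878 without shACAT2-2. Without shACAT2-3 limma's adjusted p was 0.0476. With shNC-2 and shNC-3 averaged, COL4A5 was not called, at a log2 fold change of -0.517 and an adjusted p of 0.1285 by limma.

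COL4A1 and COL4A2, whose chains form the collagen IV of nearly all basement membranes, were almost absent: COL4A1 had 0, 2 and 0 fragments in shNC and 4, 0 and 10 in shACAT2. COL4A3, COL4A4 and COL4A6 had 2 to 18 fragments in each library. COL4A6 starts 380 bases from COL4A5 on the opposite strand, so the pair shares its upstream region, yet it was at 0.0562 to 0.0915 FPKM in shNC and 0.0213 to 0.079 in shACAT2. Its values overlapped between the groups, with an adjusted p of 0.251 by limma-voom.

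The upstream sequence is shown for this divergent pair, whose levels differ so widely, and for COL5A1 and COL5A3, which share a collagen and were both higher in shACAT2. Each is the RefSeq window (GRCh38.p14) from 250 bases before to 50 after the start, 5′ to 3′ on the gene's strand, with capitals for CCAAT or ATTGG (the CCAAT box on either strand) and GGGCGG or CCGCCC (the GC box on either strand). The windows are chrX:108439588-108439887 (plus strand) for COL4A5, chrX:108439409-108439708 (minus strand) for COL4A6, chr9:134641553-134641852 (plus strand) for COL5A1 and chr19:10010455-10010754 (minus strand) for COL5A3.
COL4A5: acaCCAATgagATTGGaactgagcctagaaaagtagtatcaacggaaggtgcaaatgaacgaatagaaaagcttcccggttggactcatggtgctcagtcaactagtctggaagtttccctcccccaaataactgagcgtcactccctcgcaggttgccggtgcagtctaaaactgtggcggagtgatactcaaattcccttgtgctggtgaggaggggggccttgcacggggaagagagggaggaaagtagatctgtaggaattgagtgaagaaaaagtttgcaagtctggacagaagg
COL4A6: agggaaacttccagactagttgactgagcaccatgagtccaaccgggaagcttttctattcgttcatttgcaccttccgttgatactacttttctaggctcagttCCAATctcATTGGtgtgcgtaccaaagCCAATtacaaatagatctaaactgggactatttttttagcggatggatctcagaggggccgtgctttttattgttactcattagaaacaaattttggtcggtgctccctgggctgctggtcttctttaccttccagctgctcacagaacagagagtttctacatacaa
COL5A1: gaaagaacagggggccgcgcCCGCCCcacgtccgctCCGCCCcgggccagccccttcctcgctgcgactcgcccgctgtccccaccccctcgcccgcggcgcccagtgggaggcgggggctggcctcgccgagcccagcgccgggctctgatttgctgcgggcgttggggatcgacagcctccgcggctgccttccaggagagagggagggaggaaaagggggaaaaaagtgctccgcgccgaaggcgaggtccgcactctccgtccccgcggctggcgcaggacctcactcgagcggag
COL5A3: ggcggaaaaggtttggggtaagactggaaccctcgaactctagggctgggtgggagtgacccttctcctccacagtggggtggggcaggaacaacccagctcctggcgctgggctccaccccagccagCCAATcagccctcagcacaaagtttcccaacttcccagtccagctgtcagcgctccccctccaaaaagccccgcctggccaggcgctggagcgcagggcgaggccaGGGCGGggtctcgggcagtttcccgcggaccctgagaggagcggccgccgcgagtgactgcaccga
The COL4A5 and COL4A6 windows share 121 bases and, in them, 2 CCAAT matches, 1 on each strand. COL4A6 holds a further match nearer its own start. COL5A1 holds 2 GC boxes and no CCAAT match, and COL5A3 holds 1 of each. Over 35116 RefSeq windows of the same length, 34.6% held a CCAAT match and 45.0% a GC box, so these letters are common, and a match describes the sequence alone. Of the 44 collagen genes, 32 had a window in the table.

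Of the 4 FACITs tested limma called none, where it called 3.3% of all genes tested higher and 1.81% lower. COL9A3 and COL9A2, the alpha 3 and alpha 2 chains of the cartilage collagen IX, pointed in opposite directions. COL9A3 was at 21.2, 18.3 and 18.5 FPKM in shNC and at 37.1, 29.5 and 13.0 in shACAT2, so that shACAT2-1 and shACAT2-2 lay above every control and shACAT2-3 below. Its log2 fold change of 0.32 (95% interval -0.49 to 1.14) became 0.75 without shACAT2-3, where limma's adjusted p fell from 0.624 to 0.0408. COL9A2 was at 1.80, 1.92 and 1.91 FPKM in shNC and 1.59, 1.14 and 1.201 in shACAT2, without overlap, with a log2 fold change of -0.32 and an adjusted p of 0.172 by limma. The ratio of COL9A3 to COL9A2, also chosen after the values were seen, was 11.8, 9.53 and 9.66 in shNC and 23.3, 25.9 and 10.9 in shACAT2, overlapping through shACAT2-3.

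COL16A1, a FACIT of fibrils in skin and cartilage, followed the libraries in the same manner. It was at 22.2, 19.8 and 20.4 FPKM in shNC and 27.2, 23.2 and 14.7 in shACAT2, and its log2 fold change of 0.02 (95% interval -0.48 to 0.52) turned to -0.03 under scaling to the total and under limma-voom. COL12A1, which binds collagen I fibrils in dense connective tissue, was at 7.04, 9.20 and 9.09 FPKM in shNC and 7.55, 14.1 and 12.3 in shACAT2. Here shACAT2-1 lay within the control range, and the log2 fold change was 0.35 (95% interval -0.17 to 0.88). COL14A1 (0.48 to 1.00 FPKM) and COL21A1 (0.268 to 0.514 FPKM) lay under the filter and overlapped, COL20A1 stayed under 0.1 FPKM, and COL9A1, COL19A1 and COL22A1 had at most 7 fragments in a library.

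Of the other collagens, collagen VI, which forms beaded microfilaments around cells, had COL6A1 and COL6A2 expressed and COL6A3 nearly absent. COL6A1 was at 22.5, 18.7 and 19.3 FPKM in shNC and 26.1, 21.4 and 17.6 in shACAT2, which overlapped. COL6A2 was at 8.08, 7.20 and 7.33 FPKM in shNC and 13.4, 9.81 and 7.66 in shACAT2, overlapping through shACAT2-3 alone. Their log2 fold changes were 0.09 (95% interval -0.28 to 0.46) and 0.37 (-0.06 to 0.80). The ratio of COL6A1 to COL6A2 was lower in each shACAT2 library, at 1.95, 2.18 and 2.30, against 2.79, 2.60 and 2.64 in shNC. These neighbours lie 93.046 kb apart on chromosome 21. COL6A3, the long chain of collagen VI, had 2 to 17 fragments in each library.

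COL26A1, a collagen described from testis and ovary, was at 4.60, 3.40 and 3.55 FPKM in shNC and 7.58, 6.56 and 4.16 in shACAT2, where shACAT2-3 fell within the control range. Its log2 fold change was 0.53 (SE 0.20), with limma's adjusted p at 0.175, and at 0.0415 without shACAT2-3. COL18A1, the source of the fragment endostatin, was at 1.79, 1.34 and 1.49 FPKM in shNC and 1.24, 1.12 and 0.985 in shACAT2, without overlap, with an adjusted p of 0.276 by limma. It shares 1401 exon bases, 16.4% of its length, with SLC19A1 on the opposite strand, which was at 9.38 to 11.8 FPKM in shNC and 7.89 to 11.8 in shACAT2, so its low values are uncertain. COL15A1, its relative in basement membrane zones, was at 1.07 to 1.23 FPKM in shNC and 1.08 to 1.202 in shACAT2.

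The 27 collagen genes under the filter lay between 0 and 1.10 FPKM, and 22 of them stayed under 0.5 FPKM in every library. COL7A1, of the anchoring fibrils of skin, was at 0.582 to 0.758 FPKM in shNC and 0.379 to 0.738 in shACAT2. COL23A1, a transmembrane collagen, had 0, 2 and 0 fragments in shNC and 2, 2 and 20 in shACAT2, so its level came mainly from shACAT2-3. COL8A2 (0.211 to 0.434 FPKM) and the transmembrane COL13A1 (0.112 to 0.17 FPKM) overlapped between the groups, and COL6A5, COL6A6, COL8A1, COL10A1, COL17A1, COL25A1 and COL28A1 had at most 15 fragments in a library. Of the 27, shACAT2-3 held the highest value of all 6 libraries in 16 (59.3%), beside 55.7% of all genes under the filter with a fragment. For the 14 genes that limma-voom could not test, no library exceeded 20 fragments, and a difference was not detectable at this depth.

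The shACAT2-3 library was the lowest of its group in 13 of the 17 collagen genes tested (76.5%), beside 40.1% of all genes tested. Without it, limma called 5 collagen genes higher (COL1A1, COL1A2, COL26A1, COL5A1 and COL9A3), beside 3.32% of all genes tested in that fit, and 1 lower, beside 1.78%. Few genes of any kind were called by limma without shNC-1 (0.97% of all genes tested), shNC-2 (0.728%), shNC-3 (0.454%) or shACAT2-2 (0.924%), and no collagen gene was among them.

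Genes that build, cross-link and degrade collagen were read from 5 lists of 73 genes, 53 of which passed the filter. By limma, 6 were higher in shACAT2, beside 3.3% of all genes tested, 1 was lower, beside 1.81%, and 46 were not called. The median log2 fold change was 0.25, beside 0.016 over all genes tested. The 6 became 2 without shNC-2 and 1 without shNC-3, fits that called only 0.728% and 0.454% of all genes tested in either direction. The lower call was lost (0 remaining) when shACAT2-2 or any 1 control library was left out. With the replicate block 13 were higher, beside 7.67% of all genes tested, and 2 were lower, beside 4.81%. At an unadjusted p under 0.05 by limma, 21 of the 53 were higher, beside 12.8% of all genes tested, and 2 were lower, beside 10.7%.

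In the list of chain modification and folding, 2 of 19 genes tested were higher, beside 3.3% of all genes tested, and none was lower, beside 1.81%. PLOD3, which hydroxylates and glycosylates collagen lysines, was at 32.9, 28.8 and 30.0 FPKM in shNC and 63.5, 51.0 and 44.2 in shACAT2, with an adjusted p of 0.0376 by limma. P4HA2, a catalytic subunit of prolyl hydroxylase, was at 1.56, 1.35 and 1.15 FPKM in shNC and 3.18, 2.53 and 2.63 in shACAT2, with an adjusted p of 0.0284 by limma. Neither overlapped between the groups. The chaperone HSPA5 had the highest level of the list, 178 ± 9.41 against 228 ± 16.2 FPKM (SD, n = 3). Its adjusted p was 0.113 by limma, 0.0432 with the replicate block and 0.0645 by limma-voom. SERPINH1, the collagen chaperone HSP47, was at 114 ± 12.0 and 161 ± 32.8 FPKM, with an adjusted p of 0.15 by limma, 0.038 with the block and 0.0627 by limma-voom. P4HB, at 94.2 and 144 FPKM on average without overlap, had 0.0702 by limma, 0.0215 with the block and 0.0200 by limma-voom. The block called 7 of the 19 higher, beside 7.67% of all genes tested, and limma-voom called 3, beside 3.9%.

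Among the genes of secretion and processing limma called none of 12 tested, beside 3.3% of all genes tested higher and 1.81% lower. PCOLCE, an enhancer of procollagen trimming and the highest of them, was at 87.2 ± 7.87 and 105 ± 25.8 FPKM (SD, n = 3). TLL1 was lower without overlap, at 1.84 and 0.968 FPKM on average (adjusted p of 0.0634 by limma and 0.0217 by limma-voom). It was the 1 gene of 14 that limma-voom called lower, beside 3.83% of all genes. With the replicate block limma called MIA3 lower (0.0477), beside 4.81%. Of 9 cross-linking and assembly genes, 2 were higher and 1 lower, beside 3.3% and 1.81% of all genes tested. LOX, the lysyl oxidase that starts collagen cross-links, was at 11.6, 13.1 and 13.7 FPKM in shNC and 24.5, 28.8 and 28.7 in shACAT2, without overlap, with a log2 fold change of 1.04 (SE 0.11) and an adjusted p of 0.00697 by limma. SPARC, a matrix protein that binds collagen, was at 33.8, 27.5 and 29.6 FPKM in shNC and 68.1, 54.5 and 60.2 in shACAT2, with a log2 fold change of 0.98 and an adjusted p of 0.0118 by limma. HSPG2, which encodes the basement membrane proteoglycan perlecan, was at 8.05, 6.95 and 7.33 FPKM in shNC and fell to 3.28, 3.95 and 4.26 in shACAT2, with a log2 fold change of -0.81 and an adjusted p of 0.0132 by limma.

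Collagen receptors gave no call by limma among 4 genes tested, beside 3.3% of all genes tested higher and 1.81% lower. By limma-voom 1 of 9 was higher, beside 3.9% of all genes tested. That was GP6, under the filter at 0.272 and 0.719 FPKM on average (9 to 33 fragments), with an adjusted p of 0.0318 by limma-voom. ITGB1, the integrin beta 1 chain shared by the collagen-binding integrins, was the highest at 43.3 ± 6.38 and 45.3 ± 7.55 FPKM (SD, n = 3), while the kinase DDR2, a receptor for fibrillar collagen, was at 30.0 and 24.9 FPKM on average with a log2 fold change of -0.28. In the degradation list 2 of 9 genes were higher, beside 3.3% of all genes tested, and both encode inhibitors of the metalloproteinases that cut collagen. TIMP3 was at 13.0, 10.1 and 10.6 FPKM in shNC and 36.1, 30.8 and 31.3 in shACAT2, with a log2 fold change of 1.47 (SE 0.13) and an adjusted p of 0.0038 by limma. TIMP2 was at 18.9, 15.9 and 16.0 FPKM in shNC and 35.0, 28.1 and 33.5 in shACAT2, with an adjusted p of 0.0149 by limma. The membrane collagenase MMP14, the highest of the list, was at 25.7 and 37.4 FPKM on average without overlap, with limma's adjusted p at 0.127, and the secreted collagenases MMP1 and MMP13 were listed at 0 in every library.

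**Figure D5:**
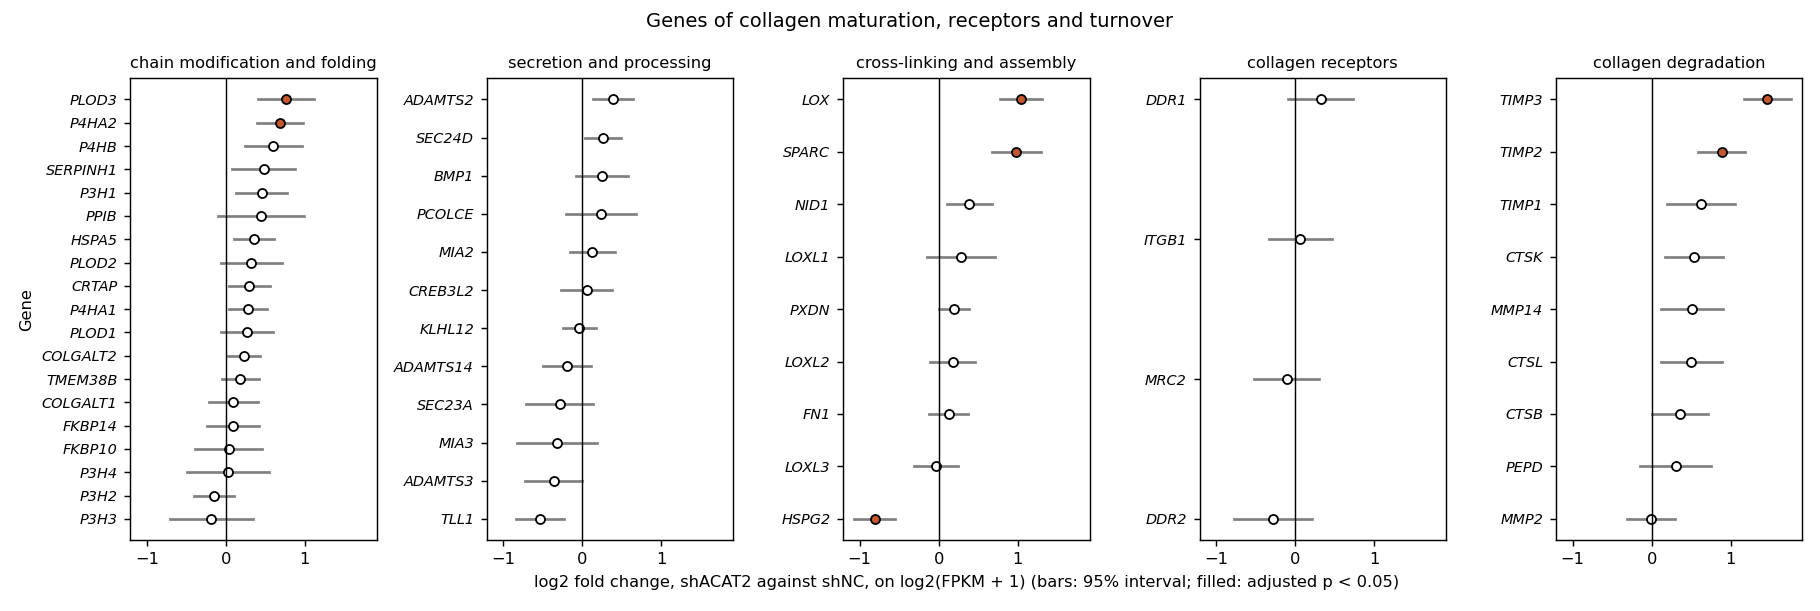
Log2 fold change of shACAT2 against shNC on log2(FPKM + 1) (horizontal axis) for the 53 genes of the 5 collagen-related lists that were tested, one panel per list, with 95% intervals of limma and filled points for an adjusted p under 0.05. The filled points are PLOD3, P4HA2, LOX, SPARC, TIMP3 and TIMP2 to the right of 0 and HSPG2 to its left.

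Markers of cells that usually make collagen moved with these genes in part, and their part in the results was not tested. Of 8 fibroblast markers 6 were tested, and 2 were higher, beside 3.3% of all genes tested. These were LUM, from 31.4 ± 3.17 to 49.5 ± 5.70 FPKM (SD, n = 3, adjusted p of 0.0423 by limma), and DCN, from 8.11 ± 0.0521 to 12.3 ± 0.925 FPKM (0.0246), both proteoglycans that bind collagen fibrils. The summed level of the 8 markers was 131 to 152 FPKM in shNC and 146 to 164 in shACAT2, which overlapped. POSTN (67.2 and 59.7 FPKM on average) and PDGFRA (2.46 and 1.56) had negative fold changes that limma did not call. PDGFRA was called lower with the replicate block (adjusted p of 0.0431 by limma) and by limma-voom (0.0332), FAP, under the filter at 0.847 and 0.387 FPKM on average, was called lower by limma-voom (0.0476), and LUM was not called by limma-voom (0.0501). The 5 endothelial markers summed to at most 0.0330 FPKM in shNC and to 0.0296 to 0.753 in shACAT2, with the highest value in shACAT2-3, and PECAM1, CDH5 and KDR were at 0 in all controls. The 4 leukocyte markers summed to 0.222 to 0.488 and 0.655 to 0.836 FPKM, mostly from CD14.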

How the data were processed

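RNA-seq of 6 HGC-27 libraries was deposited by the authors as FPKM values for 58735 genes. The submitters' processing notes name hg38, HISAT2 (2.0.5), featureCounts (1.5.0-p3) and DESeq2 (1.20.0), and the strand setting is not given in the sources used here. All gene lengths and coordinates equalled those of GENCODE release 29. Fragments were read back from FPKM and length (100% whole within 0.05) for limma-voom.

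The main test was limma (3.58.1) in R 4.3.3, on log2(FPKM + 1) with a mean-variance trend, 3 shACAT2 against 3 shNC libraries, keeping genes whose mean reached 1 FPKM in shNC or shACAT2, with Benjamini-Hochberg adjustment over all genes tested. The fits were run on simulated counts of independent libraries with planted changes and a common dispersion. This checked the working of the fits alone, since the simulated libraries lack the uneven spread of the real ones. Python 3.11.15, numpy 2.4.6, pandas 2.3.3, scipy 1.17.1 and matplotlib 3.10.9 served for the other steps. Alternatives were other scalings, filters and pseudocounts, limma-voom, a replicate block, leaving out each library and averaging shNC-2 with shNC-3.

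The labels give replicate numbers but state no pairing. The deviations of same-numbered libraries from the mean of their group correlated at 0.445, 0.126 and 0.171. Crosswise, shNC-2 with shACAT2-3 and shNC-3 with shACAT2-2 gave 0.198 and 0.141, so these values do not settle how those libraries pair. The replicate block assumes pairing by number, and its results stand as an alternative to the main test alone.

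All collagen genes past the filter were named, those under it by range, and of the related lists the genes called and the highest by mean. Other genes were named after their values were seen, as were the ratios COL3A1/COL1A1 and COL9A3/COL9A2 and the choice of promoters. The members and lists were chosen with earlier results of these data known. Promoter windows are RefSeq's.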

Additional observations from a re-analysis of the deposited data

How the results depend on the processing

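Of the 17 collagen genes tested, 13 kept the sign of their log2 fold change under all 16 alternatives, and 4 changed it. The number called higher, 1, was 2 under upper-quartile scaling and 3 under scaling to the total on genes. It was 3 when 10 or more fragments in 3 libraries were required, 4 by limma-voom with the main filter and 6 with the fragment filter. It was 0 after averaging shNC-2 with shNC-3, and 0 to 5 without 1 library. Calls over all genes, in either direction, also moved: 706 in the main fit, 775 and 885 under those scalings and 974 with the fragment requirement. They were 1167 by limma-voom with the main filter, 1260 with the fragment filter, 83 with the averaging and 63 to 862 without 1 library. The number of collagen genes lower, 1, was 0 with no filter (209 calls over all genes), 0 with the averaging and 0 to 1 without 1 library. For the related genes the 6 higher and 1 lower became 2 and 0 with the averaging, 2 and 0 under the study's limit, and 1 to 7 and 0 to 1 without 1 library, while the lower count was 2 with the fragment filter, 2 by limma-voom and 3 by limma-voom with the fragment filter. Under the study's limit no collagen gene was called higher or lower (0 and 0) in the 17 tested, and limma-voom with the fragment filter, a setting chosen after seeing the data, gave 3 and 0 under that limit, with 4 and 2 related genes. Pairing by the replicate block, which no label states, called 7.67% of all genes tested higher and 4.81% lower. It gave 4 collagen genes higher and 1 lower, and 13 and 2 related genes, and changed no call of a collagen gene other than COL1A2, COL3A1 and COL5A1.

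The 4 genes that changed sign had log2 fold changes of -0.014 to 0.088 in the main fit. COL5A2 gave -0.0036 under scaling to the total, -0.0028 by limma-voom and -0.0020 with the fragment filter, and -0.0082 to 0.14 without 1 library. COL16A1 gave -0.031, -0.031 and -0.030 in those settings, -0.0036 with the averaging and -0.16 to 0.26 without 1 library, where COL6A1 gave -0.049 to 0.22 and COL15A1 -0.051 to 0.011. The median of the collagen genes was -0.016 over the 30 that limma-voom tested with the fragment filter, which admits genes of low level. Fragments in place of FPKM gave a fibrillar share of 81.5% in shNC, a basement membrane share of 1.65% in shNC and 0.80% in shACAT2 and a share of the other collagens of 5.39% and 4.33%. Scaling moved the median of all genes by under 0.1 (0.036 and -0.028). COL5A3 had a log2 fold change of 0.72 on log2(FPKM + 1), with an adjusted p by limma of 0.0036 with the fragment filter and 0.0999 with no filter. The cause of these differences was not tested. Depth limits the rest: 14 collagen genes had at most 20 fragments in any library and were not tested.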
